A study of Mus musculus with 7 samples.

Results

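Blood vessels of the retina were followed through 35 transcripts in whole retinas treated with an AAV2 vector for Tppp3 or with a control AAV2 vector and collected after optic nerve crush. The 35 genes are the rows of the count table whose symbol is on a list of vascular genes, out of 25655 rows in all. They comprise 15 genes of endothelial identity, 8 genes of the endothelial barrier and its transporters, 9 pericyte genes and 3 smooth muscle genes. All 35 had a row and all 35 had enough counts to be tested.

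The Tppp3 AAV2 group was wild-type C57BL/6 retina that received the Tppp3 overexpression vector, and the control AAV2 group was wild-type C57BL/6 retina that received what the labels call a CMV-control AAV2. Both groups had an optic nerve crush, which damages the fibres that link the eye to the brain, and both were taken 2 days later, so no uninjured retina enters the comparison. Each group was represented by 3 libraries, and neither the age of the mice nor the promoter of the Tppp3 vector is given in the sources used here. The submitters asked how Tppp3, which encodes a tubulin polymerization-promoting protein, acts on axon regrowth and ganglion cell survival.

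Retinal capillaries are tubes of endothelial cells wrapped by pericytes, while arterioles carry a coat of smooth muscle. The endothelial cells form the inner blood-retina barrier through tight junctions, efflux pumps and a low rate of vesicle transport, and they recruit pericytes by releasing the growth factor encoded by Pdgfb. Vessels make up a small share of retinal tissue.

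Libraries held 19961359 to 21843892 counts with Tppp3 AAV2 and 10961443 to 16218074 counts in the controls, so every Tppp3 library was deeper. The 35 genes together took 9388, 11290 and 10142 counts in Tppp3 replicates 1, 2 and 3, and 5408, 8189 and 5837 counts in control replicates 1, 2 and 3. Levels are given as CPM, the field's count per 1e+06 library counts, with library sizes scaled by TMM. Tppp3 itself, the check of the labels, stood at 53.7, 36.5 and 41.8 CPM with the vector and at 18.7, 22.2 and 28.02 CPM in the controls, with no overlap between the groups (log2 fold change 0.94 ± 0.20 SE; edgeR's quasi-likelihood test, adjusted p = 0.639). Y-linked transcripts were abundant in Tppp3 replicate 2 and control replicate 1, with 4956 and 2662 counts, and nearly absent from the other 4 libraries, with 10 to 42.

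The libraries also differed in tissue from behind the retina. The mean of 14 tested pigment epithelium and choroid pigment genes, on the log2 CPM scale, lay 0.89, -0.51 and 0.89 from the 6-library average in Tppp3 replicates 1, 2 and 3 and 0.85, -0.96 and -1.15 from it in control replicates 1, 2 and 3. Rpe65, the isomerase of pigment epithelium, followed the same split, at 14.2, 2.12 and 17.04 CPM with Tppp3 AAV2 and 19.4, 1.23 and 1.36 CPM in the controls. In sum the 14 genes took 881 to 1260 CPM with Tppp3 AAV2 and 816 to 1127 CPM in the controls, and 14 of 14 had a positive fold change. This sum is not an amount of pigment tissue, as the list shares Rlbp1 with a list of Müller glia and astrocyte genes. The mean of 14 microglia and myeloid genes deviated by -0.14, 0.51 and -0.53 in the Tppp3 libraries and by -0.46, 0.24 and 0.38 in the controls. In sum they took 164 to 333 CPM with Tppp3 AAV2 and 178 to 292 CPM in the controls. The 12 tested fibroblast genes, which could come from sclera or meninges, took 207 to 218 CPM with Tppp3 AAV2 and 174 to 209 CPM in the controls, and Lum was near 0 at 0 to 1 counts per library. Other fibroblast genes were well detected and varied with the library, as Slc6a13 did at 19.6, 6.77 and 12.6 CPM with Tppp3 AAV2 and 13.6, 2.40 and 1.99 CPM in the controls. Values are given beside some of the vascular genes that moved with these lists.

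Short stretches upstream of 2 members show the kind of regulatory letters that vascular genes are known for. Egfl7 is printed because it had the smallest p among the members, and the capitals mark CAGGAAG, a core bound by ETS factors such as the member Erg. Acta2 is printed because smooth muscle genes are classic targets of serum response factor, and the capitals mark matches to the CArG box with 1 base of its A/T core changed. The sequences are from RefSeq on GRCm38.p6, not the GRCm39 of the counts, and run 5′ to 3′ on the gene's strand.
Egfl7, start 2 of 3, chr2:26583615-26583814, plus strand: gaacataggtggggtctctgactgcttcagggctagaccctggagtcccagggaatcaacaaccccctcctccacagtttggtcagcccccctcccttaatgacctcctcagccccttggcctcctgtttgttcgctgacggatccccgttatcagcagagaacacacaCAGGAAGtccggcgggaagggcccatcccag
Acta2, distal element, chr19:34255438-34255467, minus strand: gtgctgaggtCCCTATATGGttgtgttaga
Acta2, proximal element, chr19:34255388-34255417, minus strand: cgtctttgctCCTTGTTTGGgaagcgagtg
The Egfl7 core begins 81 bases before the start site, and the Acta2 elements begin 84 and 34 bases before it. Of the 35 genes, 22 matched the RefSeq table, with 28 windows of 250 upstream bases. CAGGAAG or CCGGAAG, on either strand, occurred in 4 of these 28 windows, those of Egfl7, Emcn and Erg, and in 17.0% of all 32851 windows. A CArG box with at most 1 mismatch in its A/T core occurred in 5 of 28 windows and in 8.59% of all. The 5 windows were those of Acta2, Egfl7, Eng, Ocln and Slco1a4, of which only Acta2 is a smooth muscle gene here. An exact CArG box occurred in 0 of 28 windows and in 1.47% of all. These counts describe letters only, and no binding was measured.

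Per kilobase of exon, the members ranged over 2 orders of magnitude. Tjp1, which encodes the junction scaffold ZO-1 and is also made by epithelial, glial and neuronal cells, was the highest at 27.3 CPM per kilobase with Tppp3 AAV2 and 26.9 in the controls. Rgs5, a regulator of G-protein signalling typical of pericytes, followed at 17.7 and 17.2 CPM per kilobase. Cldn5, the main claudin of barrier endothelium, stood at 7.27 and 8.78, and Pecam1, an adhesion molecule of endothelial junctions, at 2.64 and 3.26 CPM per kilobase. Pdgfrb, the pericyte receptor for the Pdgfb product, was close to Pecam1 at 3.31 and 3.04 CPM per kilobase. At the bottom were Myh11, smooth muscle myosin, at 0.366 and 0.419, Anpep, the aminopeptidase CD13, at 0.411 and 0.365, the intermediate filament gene Des at 0.360 and 0.369, and Cspg4, the proteoglycan NG2, at 0.241 and 0.281 CPM per kilobase. Defining markers of endothelium, pericytes and smooth muscle were thus all detected in every library, the smooth muscle genes with 23 to 70 counts each.

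**Figure D1:**
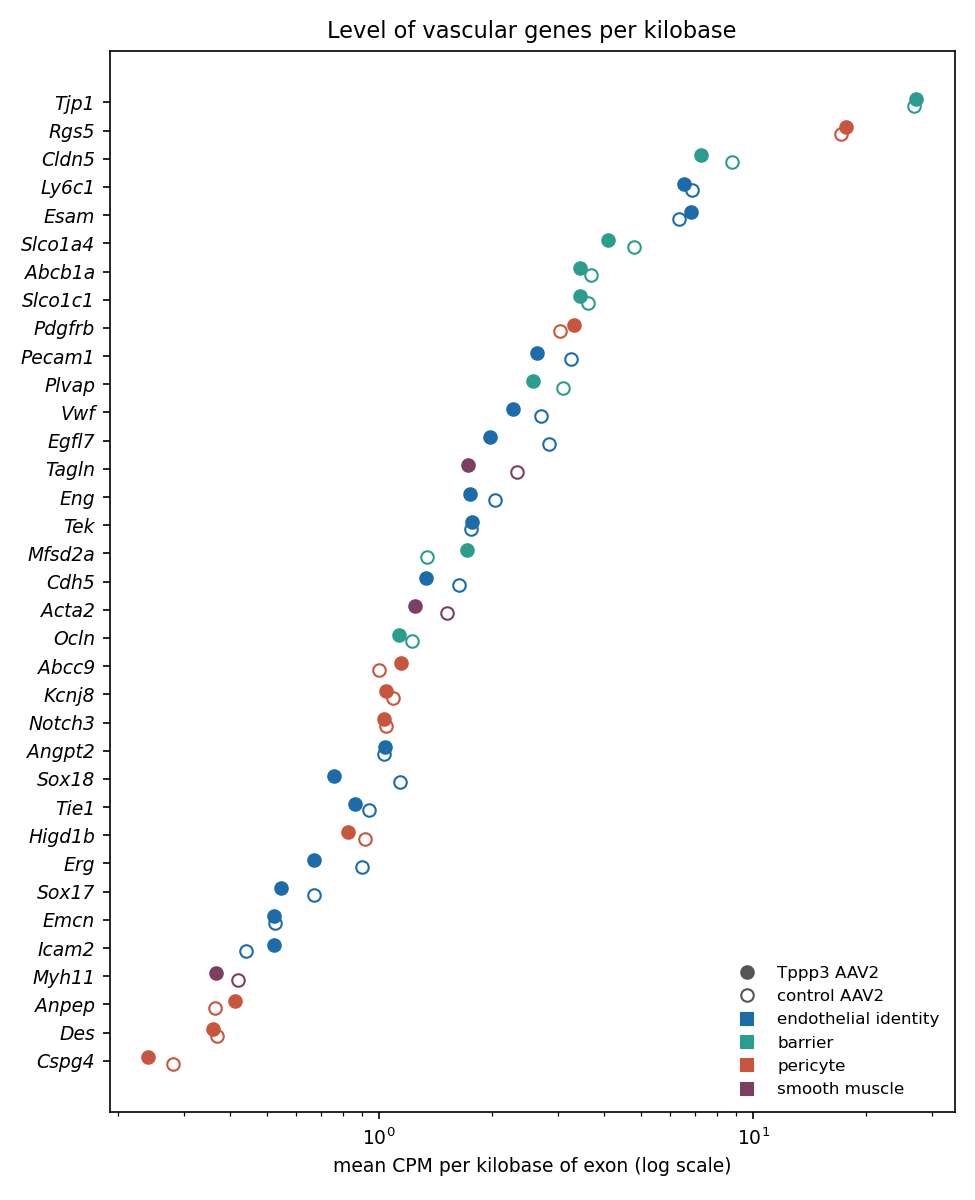
Mean level of the 35 vascular genes per kilobase of exon on a log axis, filled for Tppp3 AAV2 and open for control AAV2 (n = 3 each), coloured by role. Tjp1 and Rgs5 stand above all others, and Cspg4 is lowest at 0.241 and 0.281 CPM per kilobase.

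No vascular gene passed the test between the vectors. At an adjusted p under 0.05 in edgeR's quasi-likelihood test, 0 of 35 members were called, where 0.0136% of all 14750 tested genes were. At an unadjusted p under 0.05 there was 1 member, Egfl7, which was lower, where 7.23% of all genes reached that level and 3.55% did so as lower. DESeq2's Wald test and limma's voom also called 0 members. In bulk RNA, a change in the number of vascular cells and a change in vascular RNA per cell cannot be told apart. The groups did not overlap in 2 members, Egfl7 and Sox18, or 5.71% of them, against 13.9% of all tested genes. Both were lower, and 7.02% of all tested genes were lower without overlap. No overlap with higher values occurred in 0 members, against 6.92% of all tested genes. The log2 fold change, Tppp3 AAV2 over control AAV2, was negative in 25 members against 49.1% of all genes, and its median was -0.12 over the members against 0.0030 over all genes tested.

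**Figure D2:**
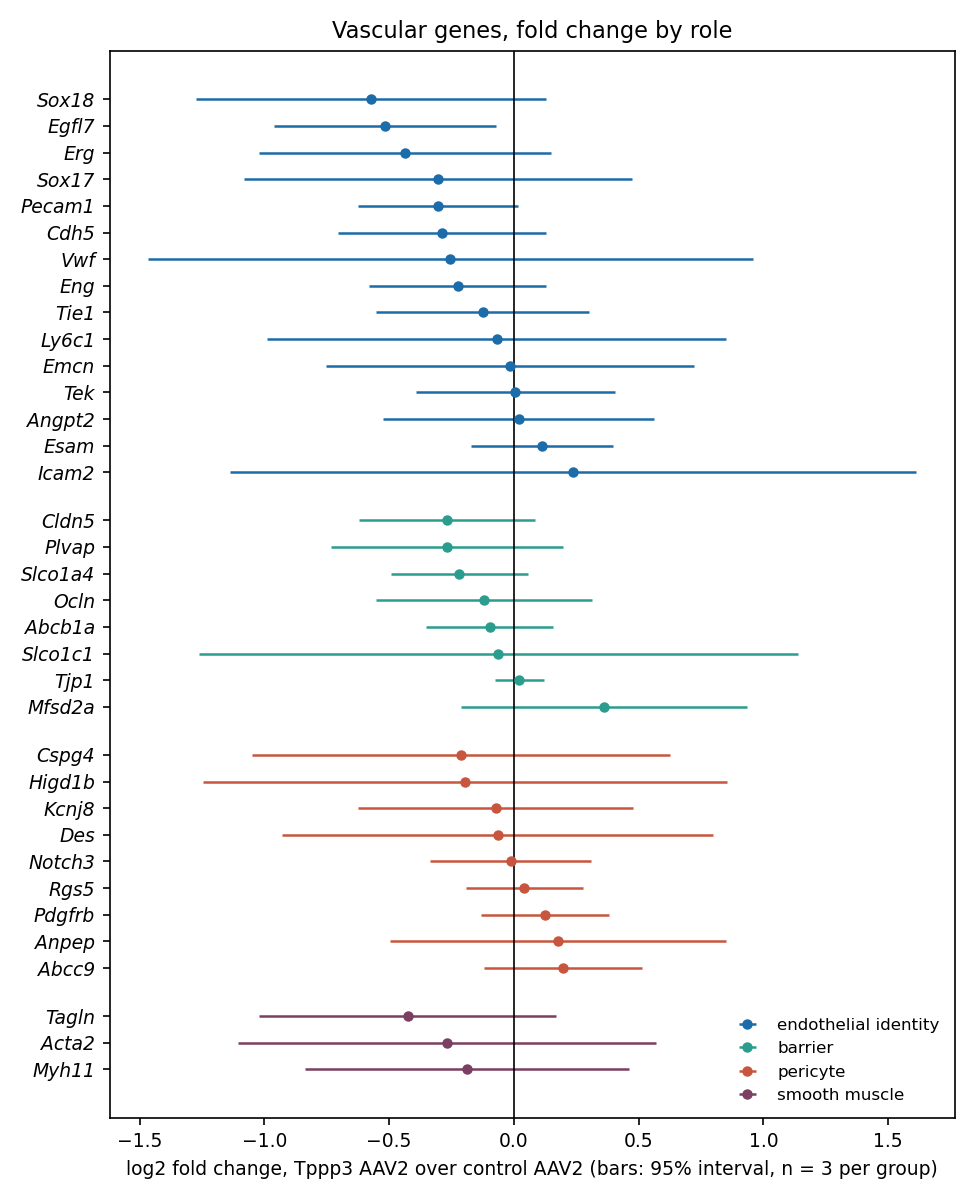
Log2 fold change of each of the 35 genes, Tppp3 AAV2 over control AAV2, with its 95% interval (n = 3 per group), grouped by role. The interval of Egfl7, -0.96 to -0.073, is the single one that does not reach 0, and no adjusted p was under 0.661.

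Endothelial identity genes had a negative fold change in 11 of 15 cases and their median was -0.23 on the log2 scale. The median was -0.070 without Tppp3 replicate 3 and -0.072 without control replicate 2. Egfl7, a secreted protein of vessel walls whose gene also hosts a microRNA of endothelial cells, stood at 3.15, 4.42 and 3.56 CPM in Tppp3 replicates 1, 2 and 3 and at 5.30, 4.92 and 5.78 CPM in the controls. Every Tppp3 library lay below every control library. Egfl7 averaged 3.71 ± 0.648 CPM with Tppp3 AAV2 and 5.33 ± 0.434 CPM in the controls (SD, n = 3 each), a log2 fold change of -0.52 ± 0.20 (SE) with an unadjusted p of 0.0263 and an adjusted p of 0.661 in edgeR's test. Sox18, a transcription factor of vessel development, was also lower in each Tppp3 library, at 1.22, 1.17 and 1.28 CPM, than in the controls, at 1.86, 1.41 and 2.26 CPM. Its log2 fold change of -0.57 ± 0.32 (SE) rested on 21 to 27 counts per library and had an edgeR adjusted p of 0.759.

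The junction genes that define endothelium overlapped between the vectors. Pecam1 stood at 9.55, 11.2 and 12.01 CPM with Tppp3 AAV2 and at 11.3, 13.2 and 16.0 CPM in the controls, a log2 fold change of -0.30 with a 95% interval of -0.62 to 0.018. Cdh5, the gene of VE-cadherin, stood at 6.20, 5.32 and 4.46 CPM with Tppp3 AAV2 and at 7.16, 5.41 and 7.05 CPM in the controls, with an interval of -0.71 to 0.13. Esam, an adhesion molecule of the same junctions, had a positive log2 fold change of 0.11, with an interval of -0.17 to 0.40. So the 3 junction genes did not share a sign.

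The angiopoietin receptor pair and its ligand were close to equal. Tek, which encodes the receptor Tie2, averaged 8.31 ± 1.46 CPM with Tppp3 AAV2 and 8.26 ± 1.601 CPM in the controls (SD, n = 3 each). Its partner Tie1 averaged 3.92 ± 0.282 and 4.27 ± 0.360 CPM, in the same order, and Angpt2, the Tie2 ligand released by activated endothelium, 3.69 ± 0.606 and 3.67 ± 0.844 CPM. Their 95% intervals still allowed log2 fold changes of -0.39 to 0.41 for Tek, -0.55 to 0.30 for Tie1 and -0.52 to 0.56 for Angpt2. Eng, a coreceptor of TGF-beta ligands, stood at -0.23 (interval -0.58 to 0.13), and Erg, an ETS factor that maintains endothelial identity, at -0.44 (interval -1.02 to 0.15). Emcn, the sialomucin of capillaries and veins, stood at -0.015 on 13 to 33 counts per library. Tek was higher in the libraries with low pigment genes. It stood at 9.97 CPM in Tppp3 replicate 2 and at 8.85 and 9.49 CPM in control replicates 2 and 3. The libraries with high pigment genes had 7.21 and 7.74 CPM in Tppp3 replicates 1 and 3 and 6.45 CPM in control replicate 1. With the pigment list level as a covariate, the log2 fold change of Tek was 0.25.

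A further 4 endothelial genes, like Tek, Angpt2 and Emcn above, varied between libraries more than between vectors. These 4 were singled out after their values were seen. Vwf, the clotting factor stored in endothelial granules, stood at 23.5, 27.6 and 15.7 CPM in Tppp3 replicates 1, 2 and 3 and at 13.2, 32.5 and 33.7 CPM in the controls. Control replicate 1 was the lowest of all libraries for Vwf, and likewise for Ly6c1, Sox17 and Icam2. It was the lowest for Tek, Esam and Plvap too. Ly6c1, a surface antigen of brain and retinal endothelium, stood at 12.5, 9.79 and 8.02 CPM with Tppp3 AAV2 and at 5.57, 11.3 and 14.9 CPM in the controls. Its reads may be shared with the near-identical Ly6c2, a monocyte gene, which stood at 4.67, 3.16 and 0.902 CPM and at 1.41, 2.83 and 3.43 CPM in the same order. Sox17, a factor of arterial endothelium, was at 1.33 CPM in control replicate 1 and between 1.73 and 3.56 CPM elsewhere. Icam2, an adhesion ligand for leukocytes, had 1 count in control replicate 1 and 8 to 18 counts elsewhere, so that its log2 fold change of 0.24 had an interval of -1.14 to 1.61.

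The coefficient of biological variation that edgeR assigned was 38.1% to Vwf and 31.5% to Ly6c1, where genes of like abundance had 12.3% and 16.02%. It was nearer to that of like genes for Sox17, at 28.9% against 26.2%, and Icam2, at 37.2% against 30.7%. Tek, Angpt2 and Emcn lay below like genes, at 16.9%, 21.1% and 23.5% against 17.3%, 23.7% and 29.3%. The pigment list was high, and the microglia list low, in control replicate 1 and Tppp3 replicate 3, where Vwf was lowest. The pigment list was as high in Tppp3 replicate 1, where Vwf stood at 23.5 CPM and the microglia list deviated by -0.14. Gfap, the filament gene of astrocytes and reactive Müller glia, stood at 74.4, 108.9 and 32.9 CPM with Tppp3 AAV2 and at 39.6, 98.4 and 97.2 CPM in the controls, and was lowest in the same 2 libraries. The part of pigment, microglial and glial tissue in the Vwf values was not tested beyond a fit with the pigment level. With the pigment list level as a covariate, the log2 fold change changed sign to 0.31 for Vwf, 0.33 for Ly6c1 and 0.18 for Sox17, and none of these was called in edgeR's test (adjusted p = 0.756, 0.855 and 0.915). In the same fit the median of the 15 identity genes was -0.021 instead of -0.23, and 8 of them had a negative fold change. Egfl7 stood at -0.43, Sox18 at -0.59, Cdh5 at -0.34, Erg at -0.31 and Eng at -0.27.

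**Figure D3:**
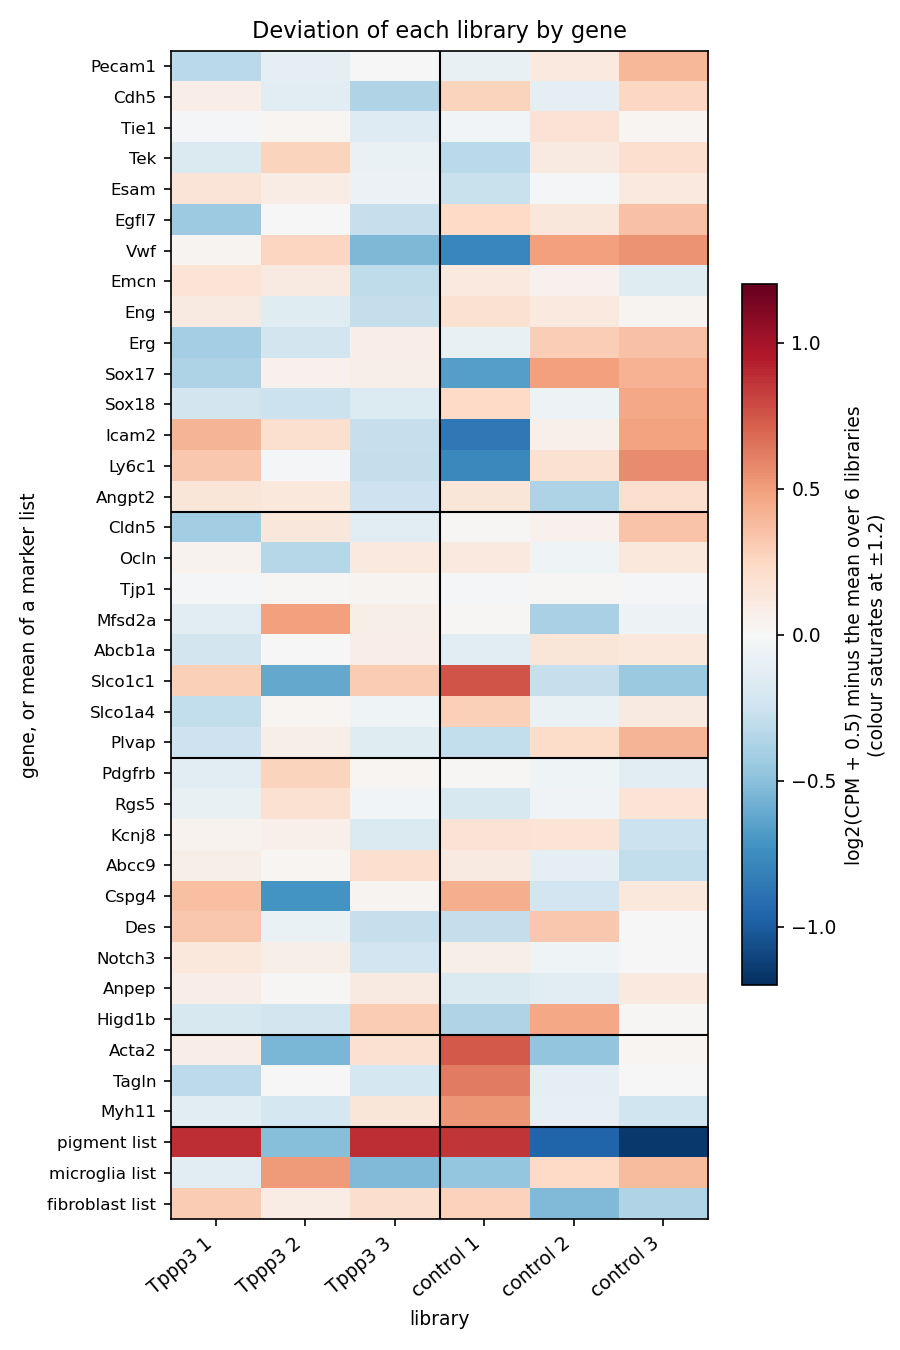
Deviation of each library from the 6-library mean on the log2(CPM + 0.5) scale, red above and blue below, for the 35 genes by role and for the means of the pigment, microglia and fibroblast marker lists, with Tppp3 AAV2 libraries on the left. Control replicate 1 is low for Vwf, Sox17, Icam2 and Ly6c1 and high for Slco1c1 and the 3 smooth muscle genes.

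Barrier genes had a negative fold change in 6 of 8 cases and their median was -0.11 on the log2 scale. It was -0.22 without Tppp3 replicate 3, -0.20 without control replicate 2 and -0.048 without Tppp3 replicate 2. Cldn5 stood at 8.28, 12.4 and 10.3 CPM with Tppp3 AAV2 and at 11.3, 11.6 and 14.4 CPM in the controls. Tppp3 replicate 2 lay above 2 of the control libraries, and the interval ran from -0.62 to 0.086 (edgeR adjusted p = 0.767). In the libraries with high pigment genes, Tppp3 replicates 1 and 3 and control replicate 1, Cldn5 was lower than in the other libraries. Its log2 fold change was -0.12 with the pigment list level as a covariate. Ocln, the gene of occludin, averaged 4.76 ± 0.858 CPM with Tppp3 AAV2 and 5.18 ± 0.390 CPM in the controls (SD, n = 3 each). Tjp1 was the most tightly measured member, at 190.4, 195 and 197 CPM with the Tppp3 vector and 189.0, 195 and 189 CPM in the controls. Its 95% interval of -0.077 to 0.12 bounds any difference at these libraries more closely than that of any other member.

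Transporters and regulators of vesicle transport pointed both ways. Slco1a4, an organic anion transporter of barrier endothelium, stood at 13.7, 17.1 and 16.2 CPM with Tppp3 AAV2 and at 20.7, 16.0 and 18.3 CPM in the controls, a log2 fold change of -0.22 ± 0.12 (SE; edgeR adjusted p = 0.767). Abcb1a, the efflux pump P-glycoprotein, stood at -0.097 (interval -0.35 to 0.16). Mfsd2a, the lysolipid transporter that restrains transcytosis in barrier endothelium, stood at 0.36 (interval -0.21 to 0.93), with 2.90, 4.74 and 3.42 CPM in Tppp3 libraries and 3.27, 2.34 and 3.07 CPM in control libraries. Its fold change was 0.14 without Tppp3 replicate 2 and 0.22 without control replicate 2. Plvap, a component of fenestral diaphragms that is low in barrier vessels and high in the choriocapillaris, stood at -0.27 (interval -0.73 to 0.20). Plvap was at 4.57 and 4.94 CPM in Tppp3 replicates 1 and 3 and at 4.42 CPM in control replicate 1, the libraries with high pigment genes, against 5.82 CPM in Tppp3 replicate 2 and 6.51 and 7.50 CPM in control replicates 2 and 3.

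Slco1c1, a thyroid hormone transporter made by barrier endothelium and also by other cells of the eye, varied widely between libraries, as Vwf did. It stood at 13.4, 6.95 and 13.6 CPM in Tppp3 replicates 1, 2 and 3 and at 18.7, 8.91 and 7.86 CPM in the controls. The 3 libraries with high pigment genes were the 3 highest for Slco1c1 in both groups. Its coefficient of biological variation of 38.3% compared with 15.5% for genes of like abundance. The log2 fold change was -0.062 (interval -1.26 to 1.14), and -0.55 with the pigment list level as a covariate (adjusted p = 0.367 in edgeR's test), the smallest adjusted p of any member under any setting tried.

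Pericyte genes lay around 0, with 5 of 9 negative and a median log2 fold change of -0.012. The median was positive with the pigment covariate (0.066), without Tppp3 replicate 3 (0.096), without control replicate 1 (0.0037) and without control replicate 2 (0.12). It was also positive at a mean of at least 1 CPM (0.012) and after thinning to the shallowest library (0.029). Pdgfrb stood at 15.8, 21.0 and 17.7 CPM with Tppp3 AAV2 and at 17.5, 16.7 and 15.8 CPM in the controls. Rgs5 stood at 74.2, 89.6 and 77.3 CPM with Tppp3 AAV2 and at 69.0, 76.8 and 88.6 CPM in the controls. The groups overlapped in both genes, and the 95% intervals were -0.13 to 0.38 for Pdgfrb and -0.19 to 0.28 for Rgs5. The fold change of Pdgfrb, 0.12, was 0.0067 without Tppp3 replicate 2 and 0.21 without Tppp3 replicate 1. Abcc9 and Kcnj8 encode the sulfonylurea receptor and the pore of the ATP-sensitive potassium channel of pericytes. Abcc9 stood at 9.35, 9.02 and 10.3 CPM with Tppp3 AAV2 and at 9.64, 8.24 and 7.14 CPM in the controls (log2 fold change 0.20 ± 0.14 SE, edgeR adjusted p = 0.808), whereas Kcnj8 averaged 2.65 ± 0.285 and 2.78 ± 0.528 CPM in the same order (SD, n = 3 each).

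Notch3, the Notch receptor of mural cells, averaged 8.27 ± 1.14 CPM with Tppp3 AAV2 and 8.35 ± 0.382 CPM in the controls (SD, n = 3 each; interval -0.33 to 0.31). The remaining pericyte genes were too sparse for a close bound. Cspg4 stood at -0.21 (interval -1.05 to 0.63), Des at -0.064 (-0.93 to 0.80), Anpep at 0.18 (-0.50 to 0.85) and Higd1b, a pericyte marker of the hypoxia-inducible domain family, at -0.20 (-1.25 to 0.86). Higd1b had as few as 5 counts in a library and Des as few as 9.

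Smooth muscle genes were all 3 negative, with a median log2 fold change of -0.27, and without 1 control library 2 of them were positive. Acta2, smooth muscle actin, stood at 2.85, 1.67 and 3.09 CPM with Tppp3 AAV2 and at 4.77, 1.78 and 2.71 CPM in the controls. Tagln, the actin-binding protein transgelin, stood at 2.44, 3.16 and 2.66 CPM with Tppp3 AAV2 and at 5.13, 2.89 and 3.16 CPM in the controls. Myh11 stood at 2.29, 2.12 and 2.85 CPM with Tppp3 AAV2 and at 3.89, 2.34 and 2.08 CPM in the controls. Control replicate 1 was the highest of the 6 libraries in all 3 genes, while the other 2 controls lay within or near the range of the Tppp3 libraries.

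Without control replicate 1 the log2 fold change was 0.19 for Acta2, 0.12 for Myh11 and -0.14 for Tagln, and the median of the 3 genes was 0.12. Their adjusted p in the full comparison was 0.915, 0.927 and 0.782 in edgeR's test. Control replicate 1 carried Y-linked transcripts, as did Tppp3 replicate 2. Control replicate 1 was also high in pigment genes, as were Tppp3 replicates 1 and 3, in which the smooth muscle genes stood at 2.29 to 3.09 CPM. Acta2 was higher in these libraries, at 4.77, 2.85 and 3.09 CPM, than in those with low pigment genes. The latter, Tppp3 replicate 2 and control replicates 2 and 3, had 1.67, 1.78 and 2.71 CPM of Acta2. Tagln and Myh11 did not split in this way. The fibroblast list deviated by 0.28 in control replicate 1 and by 0.31 and 0.21 in Tppp3 replicates 1 and 3. The 5 tested striated muscle genes deviated by 0.15, 0.066 and 0.053 in Tppp3 replicates 1, 2 and 3 and by 0.17, -0.32 and -0.11 in the controls. By this mean control replicate 1 was narrowly their highest library. In summed CPM Tppp3 replicate 1 was higher, at 10.4 against 9.72 in control replicate 1. With the pigment list level as a covariate the log2 fold change was -0.70 for Acta2, -0.53 for Tagln and -0.44 for Myh11, and none was called in edgeR's test (adjusted p = 0.599, 0.667 and 0.709). The part of fibroblast and striated muscle tissue in the smooth muscle values was not tested.

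**Figure D4:**
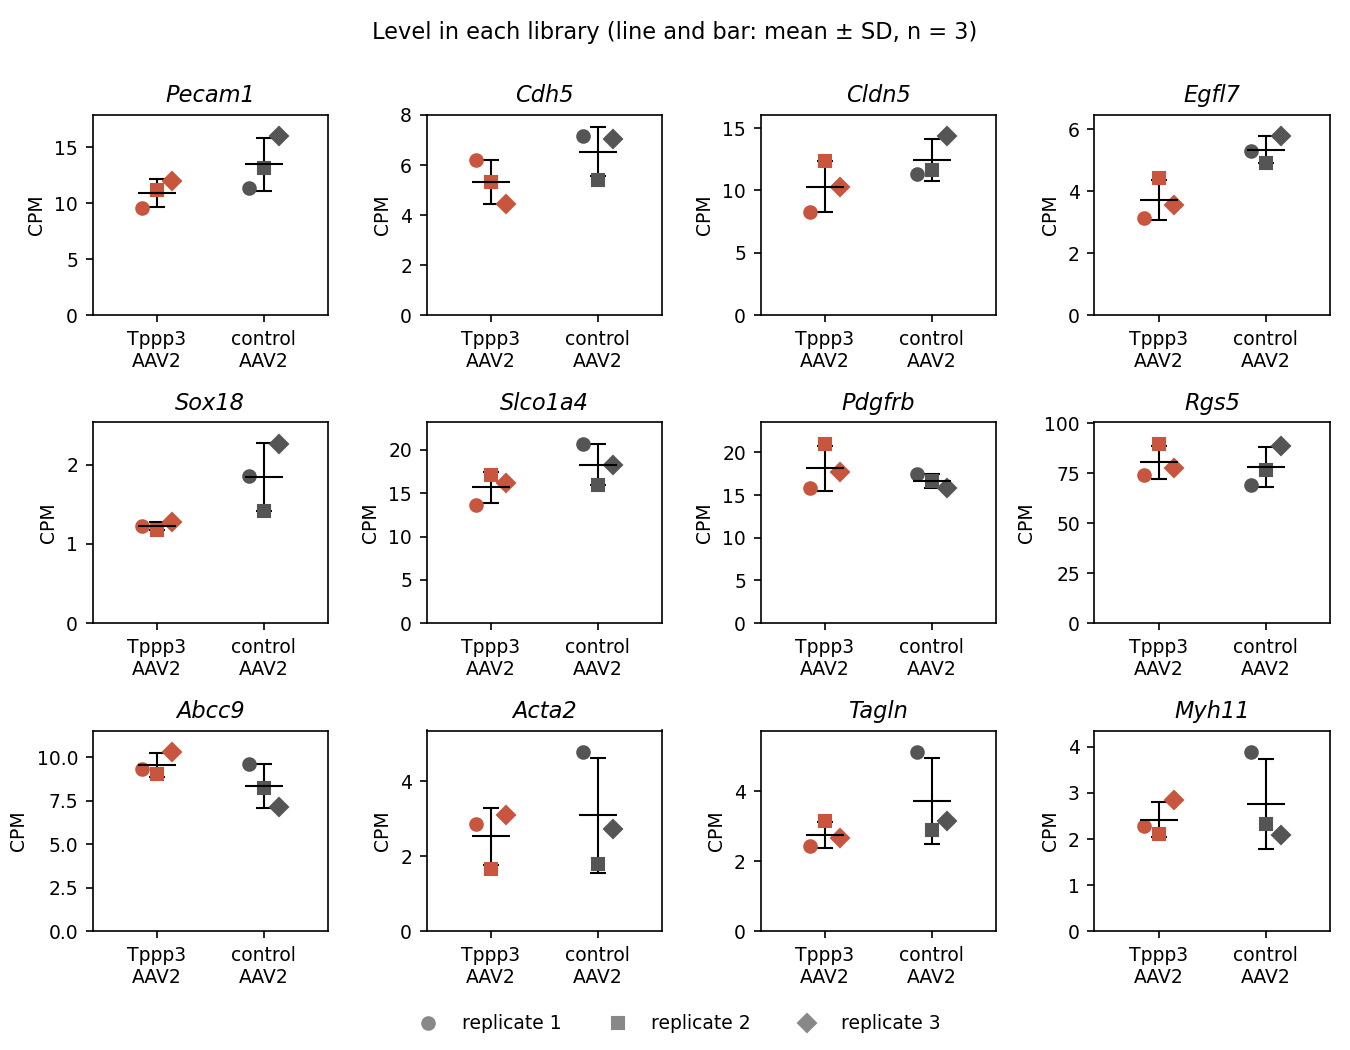
CPM in each library for 12 vascular genes, Tppp3 AAV2 left of control AAV2, with marker shape giving the replicate number and bars the mean and SD (n = 3). Egfl7 and Sox18 are the genes whose groups do not overlap, and control replicate 1 is the highest library for Acta2, Tagln and Myh11.

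Endothelial and mural genes were then set side by side. The median log2 fold change was -0.13 over the 23 endothelial and barrier genes and -0.068 over the 12 pericyte and smooth muscle genes. The order was reversed with the pigment covariate, at -0.021 and -0.032, and without control replicate 3, at -0.11 and -0.15. The mural median was positive without Tppp3 replicate 3, control replicate 1 or control replicate 2, at 0.041, 0.012 and 0.021. Within each library, the mean log2 level of the endothelial and barrier genes exceeded that of the mural genes by 0.52, 0.70 and 0.49 in Tppp3 replicates 1, 2 and 3 and by 0.38, 0.69 and 0.86 in control replicates 1, 2 and 3. The 3 Tppp3 values lay inside the range of the controls, and the group means of 0.57 ± 0.12 and 0.64 ± 0.24 (SD, n = 3 each) differed by less than either SD. For identity genes against pericyte genes alone, the difference was -0.12 ± 0.13 with Tppp3 AAV2 and 0.033 ± 0.23 in the controls (SD, n = 3 each), again with overlap. Endothelial identity genes in sum took 98.4, 103.6 and 83.1 CPM in the Tppp3 libraries and 82.03, 113.2 and 126.8 CPM in the controls, and pericyte genes 117.6, 135.2 and 120.1 CPM and 113.3, 118.3 and 127.7 CPM in the same order.

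Other genes of the vessel wall, taken from wider lists, were tested in the same fit, and 0 were called in edgeR's test. Of 22 further endothelial genes 13 had a negative fold change and 2, Ptprb and Cd34, an unadjusted p under 0.05, both negative. Ptprb, the phosphatase that restrains Tie2, stood at 24.0, 24.04 and 29.4 CPM with Tppp3 AAV2 and at 31.1, 29.4 and 31.5 CPM in the controls, with a log2 fold change of -0.25 ± 0.094 (SE; edgeR adjusted p = 0.648). Cd34, a sialomucin of endothelium and progenitor cells, stood at -0.34 ± 0.15 (SE), and She, an adaptor protein, at 0.56 ± 0.31 (SE), both with overlapping groups. The median of the 22 genes was -0.025.

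Among 22 tested genes of vessel signalling, 7 had a negative fold change and the median was 0.046. Pdgfb, the pericyte-recruiting ligand, was at 4.52, 4.92 and 4.42 CPM with Tppp3 AAV2 and at 7.43, 6.08 and 7.41 CPM in the controls. No Tppp3 library reached the lowest control, and the log2 fold change was -0.59 ± 0.17 (SE) with an unadjusted p of 0.00478 and an adjusted p of 0.639 in edgeR's test. Heyl, a Notch target, stood at -0.62 ± 0.38 (SE) and Apln, the ligand apelin of sprouting endothelium, at 0.76 ± 0.50 (SE), each below 2 CPM in every library. The groups did not overlap for Heyl and overlapped for Apln.

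Further junction and transport genes had 11 of 24 negative members and a median of 0.044. Slc2a1, the glucose transporter of barrier endothelium and also of neural and pigment cells, stood at 248, 257 and 299 CPM with Tppp3 AAV2 and at 235, 227 and 236 CPM in the controls, with no overlap (log2 fold change 0.21 ± 0.067 SE, edgeR adjusted p = 0.648). Cgn, the junction protein cingulin, stood at 0.29 ± 0.11 (SE) without overlap, and F11r, the junctional adhesion molecule A, at -0.39 ± 0.18 (SE) with overlap. Of 20 tested further mural genes 9 were negative, with a median of 0.011, and 6 had groups that did not overlap, 5 of them lower, or 30% against 13.9% of all genes. Heyl, among the 5 lower, is on the vessel signalling list too and is thus counted in both lists. In the other wider lists the share without overlap was 13.6% for endothelial, 13.6% for vessel signalling and 8.33% for junction and transport genes. Itga8, an integrin of smooth muscle, stood at -0.49 ± 0.23 (SE), Ano1, a chloride channel of contractile cells, at -0.42 ± 0.20 (SE), and Vtn, the vitronectin gene, at -0.11 ± 0.064 (SE), each with every Tppp3 library below every control library. Vtn averaged 671 ± 54.2 CPM with Tppp3 AAV2 and 726 ± 21.8 CPM in the controls (SD, n = 3 each) and is also made by photoreceptors. Its level per kilobase, 384.6 CPM with Tppp3 AAV2 and 417 CPM in the controls, was above that of any of the 35 members. At an unadjusted p under 0.05 there were 0 of these mural genes.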

How the data were processed

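Whole mouse retinas were sequenced as poly(A)-selected libraries that do not mark strand, per the labels' protocols. Per the file headers, each deposited value is a total count for 1 gene symbol, and the values are whole and unscaled. GRCm39 (mm39) is the build in the submitters' processing notes. Which aligner, counter and annotation made them is not given in the sources used here, and counts of overlapping or near-identical genes may have been split in unknown ways.

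A column was used where its name matched a sample title, which gave 3 libraries per group. The fourth control sample was not analysed here, and 1 column, whose header names a further Tppp3 library but matches no labelled sample, was not used. The treatment protocol gives other group sizes than the sample labels, which were followed. Whether libraries came from separate animals is not stated, so p-values set the difference between vectors against the spread between these samples. Y-linked transcripts were abundant in Tppp3 replicate 2 and control replicate 1 only, so neither group came from a single animal. Chi-square per degree of freedom was 3.99 to 13.4 within groups, so no pair was 1 library.

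Of 25655 genes, 14750 passed edgeR's filter by group. Counts were scaled by TMM and tested with edgeR's quasi-likelihood F test (robust, two-sided, Benjamini-Hochberg over all tested genes, threshold 0.05). SE came from the fold change and F, and 95% intervals from the fit's degrees of freedom. The common biological coefficient of variation was 11.9%. List levels are means of log2(CPM + 0.5). Exon lengths came from GENCODE on an older build and served only for levels per kilobase. Python 3.11.15 with matplotlib 3.10.9 drew the figures, and R 4.3.3 ran edgeR 4.0.16, DESeq2 1.42.0 and limma 3.58.1. The procedure was tested on simulated data.

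Members and lists were chosen with earlier results of these data known. Values in every library are given for Pecam1, Cdh5, Cldn5, Pdgfrb, Rgs5, Acta2, Tagln, Myh11 and the 4 members of smallest p among endothelial and among mural genes, and for others chosen after their values were seen. The 3 genes of smallest p of each wider list are named. Alternatives were DESeq2's size factors and Wald test, voom weights by sample quality in limma, 2 other low-count filters, leaving out each library, a replicate block, thinning to equal depth, and pigment level or sex as a covariate.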

Additional observations from a re-analysis of the deposited data

How the results depend on the processing

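Under all 15 alternatives 0 of 35 members were called, and the lowest adjusted p of any member was 0.367 (Slco1c1, pigment covariate, edgeR). Members with a negative fold change numbered 20 to 27 by setting, 11 members kept a negative and 6 a positive sign throughout, and 39 of 522 fits of a member changed sign. Over the whole table, 0 genes were called higher and 2 lower, against 2 and 12 with DESeq2's Wald test. The pigment covariate called 1 gene higher. Genes called lower numbered 1 with voom, 6 with no low-count filter, 1 with the replicate block and 0 with the sex covariate. Leaving out 1 library gave 0 to 2 genes called higher and 0 to 1 called lower. Same-numbered libraries correlated at -0.046, 0.077 and -0.31 in their deviations from group means, and the others at -0.25 to 0.30. With 3 libraries per group these values cannot exclude a pairing or a shared batch. The replicate block called 0 members. The Tppp3 difference, not called by edgeR, had an adjusted p of 1.2e-05 in DESeq2's Wald test.

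With the pigment covariate the median log2 fold change was -0.021 for identity genes, 0.066 for pericyte genes and -0.021 for all members. Leaving out 1 library gave medians of -0.23 to -0.070 for identity, -0.22 to -0.048 for barrier, -0.067 to 0.12 for pericyte, -0.56 to 0.12 for smooth muscle, -0.15 to 0.041 for all mural genes and -0.15 to -0.054 for all members. The pericyte median was highest without control replicate 2 and the smooth muscle median without control replicate 1. Fold changes of members that changed sign were, with the pigment covariate, 0.31 for Vwf, 0.18 for Sox17, 0.33 for Ly6c1, 0.0059 for Plvap and 0.066 for Des. They were 0.0072 for Ly6c1 with the sex covariate, -0.055 for Tek and 0.14 for Slco1c1 with voom, and 0.045 for Emcn and 0.011 for Kcnj8 after thinning. The cause was not tested.

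Leaving out 1 library also turned the sign of Tek (-0.15 to 0.11), Emcn (-0.14 to 0.16), Icam2 (-0.23 to 0.80), Ly6c1 (-0.37 to 0.24), Angpt2 (-0.17 to 0.15), Ocln (-0.22 to 0.022), Slco1c1 (-0.28 to 0.42), Rgs5 (-0.043 to 0.14), Kcnj8 (-0.22 to 0.013), Cspg4 (-0.54 to 0.10), Des (-0.34 to 0.21), Notch3 (-0.089 to 0.10), Higd1b (-0.54 to 0.26), Acta2 (-0.56 to 0.19) and Myh11 (-0.35 to 0.12). Icam2 and Higd1b were not tested at a mean of at least 1 CPM. The controls held fewer counts than the Tppp3 libraries, and thinning all to the shallowest library left 34 members tested and 0 called.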
